A study of Mus musculus with 10 samples.

Results

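Bone morphogenetic proteins (BMPs) and the receptors that bind them were followed through osteoblast differentiation of MC3T3-E1 cells. The set holds 10 of the 40620 genes in the deposited table, chosen by gene name with earlier results of these data known. It comprises the ligands Bmp2, Bmp3, Bmp4, Bmp6, Bmp7 and Bmp8a, the type I receptors Bmpr1a, Bmpr1b and Acvr1, and the type II receptor Bmpr2. All 10 were found by their Ensembl identifiers. MC3T3-E1 is a mouse pre-osteoblast line from newborn calvaria, and the study used Subclone 4, so every sample comes from 1 clonal line in culture. RNA was sequenced at 5 stages with 2 replicates each, named A and B: subconfluent, confluent (day 0), and 24 h, 14 d and 21 d after the switch to osteogenic medium. Subconfluent and confluent cells grew in αMEM with serum and had no osteogenic supplement, whereas the 3 later stages received ascorbic acid at 50 µg/ml and β-glycerophosphate at 10 mM. Nothing in the labels says that A and B were separate cultures, so the p-values below measure only the spread between these samples, which may be technical.

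BMPs are secreted dimers of the TGF-β family that were named for their power to induce bone. A dimer binds a complex of type I and type II serine/threonine kinase receptors, the type II receptor phosphorylates the type I receptor, and the type I receptor phosphorylates Smad1, Smad5 and Smad9, which enter the nucleus with Smad4. In osteoblasts the pathway is known to induce the transcription factors Runx2, Dlx5 and Sp7 and the Id genes, and secreted antagonists such as noggin and chordin hold the ligands away from the receptors.

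Levels are given in RPKM, the authors' reads scaled to gene length and to the number of reads, which lets genes of different length be set side by side. Differences between stages are log2 fold changes with standard errors (SE), from the raw counts of all 10 samples fitted together in edgeR, with p-values adjusted over 20808 genes. A change was called at an adjusted p-value under 0.05. Counts on genes summed to 44736156 in the shallowest sample and 162939333 in the deepest. In each sample 3 counts, taken as the floor of detection, came to between 0.0116 and 0.0404 RPKM for Bmp8a. Such floors cover counting error only. The replicates of 24 h stood apart: the log2 ratio of A to B had an SD of 0.69 over 16133 genes there, and of 0.29 to 0.33 at the other stages. The column names also show that the index sequences of the 14 d and 21 d libraries differ from those of the earlier stages, so a difference across that line and a difference between sets of libraries cannot be told apart. The osteoblast markers Sp7, Runx2, Alpl, Col1a1, Ibsp, Bglap and Dmp1 were all detected. Of these 7, 6 were called higher and 0 lower at 21 d against subconfluent cells, where 27.3% of all genes were called higher. The exception was Col1a1, which averaged 5549 RPKM at the subconfluent stage, against 5094 RPKM at 21 d. From 14 d to 21 d 1 marker was called higher and 3 lower, with 3.77% and 5.95% of all genes.

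The 10 genes fell into a detected group and a barely detected group. Bmp4, Bmpr1a, Acvr1 and Bmpr2 were present in every sample. Bmp8a was well above the floor at 14 d and 21 d, and earlier it had at most 15 counts, in 24 h replicate B. Bmp2, Bmp3, Bmp6, Bmp7 and Bmpr1b never exceeded 9 counts in a sample. The 5 detected genes passed the filter on low counts, and Bmp8a passed it only through the stages in which it was high.

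Bmp4, a ligand known for its part in early mesoderm, limb and bone formation, was the most abundant of the 6 ligand transcripts in every sample, and its level fell between subconfluent cells and 21 d. In RNA from whole cultures, fewer cells that express a gene and less of its RNA per cell cannot be told apart. Its RPKM was 37.7 and 41.0 in the 2 subconfluent samples (A and B), 31.1 and 26.3 in confluent cells, 11.3 and 18.1 at 24 h, 13.3 and 14.3 at 14 d, and 7.03 and 6.01 at 21 d. Both subconfluent samples lay above every other sample and both 21 d samples below every other one, while the values of 24 h enclosed those of 14 d. Mean RPKM, each ± SD with n = 2, was 39.3 ± 2.29 in subconfluent cells, 28.7 ± 3.39 at confluence, 14.7 ± 4.79 at 24 h, 13.8 ± 0.711 at 14 d and 6.52 ± 0.725 at 21 d. The F test over the 5 stages gave an adjusted p-value of 3.5e-04 for Bmp4.

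Between the ends of the course Bmp4 changed by a log2 fold change of -2.48 (SE 0.20, adjusted p = 6.5e-05), which leaves 0.179 of the subconfluent level. The call held in 22 of 22 alternative analyses, with log2 fold changes from -2.64 to -2.35. A second fall separated 14 d from 21 d, stages that carry the same index pair (log2 fold change -1.15, SE 0.20, adjusted p = 0.011). This call was lost in each of the 4 analyses that left out 1 of the 14 d or 21 d libraries, with adjusted p-values from 0.055 to 0.10, while the fold change stayed between -1.27 and -1.05. At 14 d Bmp4 was also lower than at confluence (log2 fold change -0.84, SE 0.19, adjusted p = 0.015). Without confluent replicate A, 14 d replicate A or 14 d replicate B the adjusted p-value of that comparison was 0.087, 0.096 or 0.064.

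The first day in osteogenic medium held the least certain step. At 24 h against confluence the log2 fold change of Bmp4 was -0.89 (SE 0.19, adjusted p = 0.047), and both 24 h samples lay below both confluent ones. The call held in 8 of 21 alternative analyses, and with only the 24 h and confluent samples in the fit the adjusted p-value was 0.42. Because the 24 h replicates differed, the log2 fold change was -0.63 without replicate A of 24 h (adjusted p = 0.044) and -1.18 without replicate B (adjusted p = 0.0014). From subconfluent to confluent cells, both in growth medium, the log2 fold change was -0.48 (SE 0.19, adjusted p = 0.26), and it passed the threshold in the analyses without the 24 h samples (adjusted p = 0.038), without 24 h replicate A (adjusted p = 0.040) and without 24 h replicate B (adjusted p = 0.038). From 24 h to 14 d no change in Bmp4 was called (log2 fold change 0.04, SE 0.19, adjusted p = 0.91).

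Bmp4 lies on the minus strand at chr14:46383520-46390669 (GRCm38, GENCODE vM21), and its last exon shares 89 bases with the end of Gm15217, a gene on the opposite strand. Gm15217 had more counts than Bmp4, 34646 against 14217 over all samples, and its mean RPKM was 47.4 ± 2.19 (SD, n = 2) in subconfluent cells and 8.14 ± 0.340 (SD, n = 2) at 21 d, with a log2 fold change of -2.42 (SE 0.10, adjusted p = 4.5e-06) between them. Whether the counting used strand is not given in the sources used here, and the part of Gm15217 reads in the Bmp4 count was not tested. The length by which the authors divided Bmp4 was 1028 bases, against 2248 exonic bases in GENCODE vM21. With the longer length the subconfluent mean of Bmp4 becomes 17.99 RPKM and the 21 d mean 2.98 RPKM, and the ratio between stages is unaffected.

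**Figure D1:**
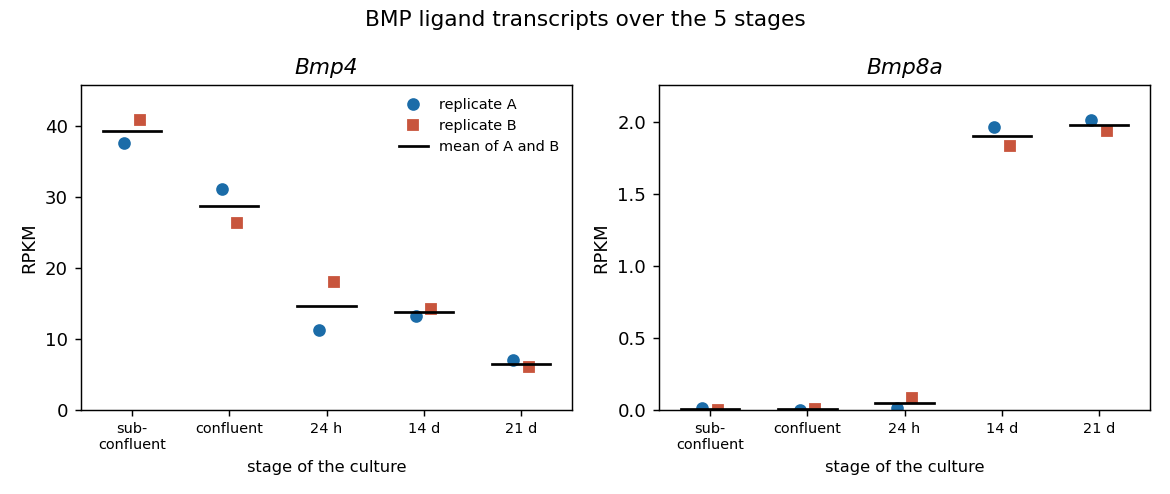
RPKM of Bmp4 (left) and Bmp8a (right) in each sample at the 5 stages, with replicate A as circles, replicate B as squares and the mean of both as a bar. Bmp4 runs from 37.7 and 41.0 in subconfluent cells to 7.03 and 6.01 at 21 d, whereas Bmp8a lies between 0 and 0.0792 up to 24 h and between 1.83 and 2.01 at 14 d and 21 d.

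Bmp8a, a ligand of the BMP7 subgroup best known for its part in male germ cells, went the other way and appeared late. It had 3 counts in subconfluent replicate A and 0 in B, 0 and 1 counts in the confluent replicates, 3 and 15 counts at 24 h, 424 and 145 counts at 14 d, and 169 and 371 counts at 21 d. In RPKM these were 0.0121 and 0 in subconfluent cells, 0 and 0.00386 at confluence, 0.0147 and 0.0792 at 24 h, 1.96 and 1.83 at 14 d, and 2.01 and 1.93 at 21 d. All 4 samples of 14 d and 21 d lay above all 6 earlier samples, and the values of 14 d and 21 d were close to each other.

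The sum of counts at 14 d, scaled to library size with the TMM factors of edgeR, was 45.7 times that at 24 h (95% exact counting interval 28.6 to 77.7). The log2 fold change was 5.48 (SE 0.69, adjusted p = 0.0032). With only the 24 h and 14 d samples in the fit the adjusted p-value was 0.067, and a filter of at least 10 counts in every sample removed the gene. Without replicate A of 24 h the log2 fold change was 4.74 (adjusted p = 0.0022), and without replicate B it was 6.97 (adjusted p = 3.2e-04). Against the 3 counts of the subconfluent samples the ratio at 21 d was 228 (95% exact counting interval 77.5 to 1108, adjusted p = 2.4e-04). Against the 1 count of the confluent samples the ratio at 14 d was 758 (95% exact counting interval 135 to 29979, adjusted p = 5.3e-04). The intervals cover counting error only, and the fitted fold changes of these last comparisons rest on the prior count and are not printed for that reason. From 14 d to 21 d the log2 fold change was -0.02 (SE 0.55, adjusted p = 0.995). At 24 h the 18 counts of both replicates stood against 1 at confluence, of which 15 came from replicate B. That difference was not called (adjusted p = 0.097), although DESeq2 gave an adjusted p-value of 0.035 and the fit without 24 h replicate A 0.013.

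Bmp8a lies on the minus strand at chr4:123312645-123343252, and its paralog Bmp8b lies on the plus strand of the same chromosome. Reads of such paralogs can be confused. Over the 939 coding bases of their first 5 exons the copies were identical at 843 positions (89.8%), and the longest identical run was 182 bases. The stretch with the most differences within these 5 exons is shown first, as a part in which reads of either copy can be told apart. It is the first 90 coding bases, at chr4:123342619-123342708 on the minus strand for Bmp8a and chr4:123105351-123105440 on the plus strand for Bmp8b. Capitals mark the 21 bases that differ.
Bmp8a: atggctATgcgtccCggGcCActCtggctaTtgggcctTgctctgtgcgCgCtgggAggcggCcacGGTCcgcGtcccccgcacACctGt
Bmp8b: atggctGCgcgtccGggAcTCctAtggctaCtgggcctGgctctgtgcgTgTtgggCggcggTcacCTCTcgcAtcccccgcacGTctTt
The second stretch runs into the longest identical part, coding bases 381 to 470, at chr4:123325144-123325233 for Bmp8a and chr4:123114623-123114712 for Bmp8b. It shows how little separates the copies there, with 1 differing base in capitals.
Bmp8a: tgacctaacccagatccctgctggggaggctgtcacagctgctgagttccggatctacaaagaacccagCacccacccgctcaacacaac
Bmp8b: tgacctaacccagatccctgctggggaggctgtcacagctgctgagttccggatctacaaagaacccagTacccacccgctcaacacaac
Of the 2355 stretches of 51 bases in the longer Bmp8a transcript, 51 bases being the read length, 207 (8.79%) also occurred in Bmp8b and none in another gene. Bmp8b had between 27 and 138 counts in every sample, including those in which Bmp8a had 0 or 1. Its mean was 0.253 ± 0.0230 RPKM (SD, n = 2) in subconfluent cells and 0.372 ± 0.0890 RPKM (SD, n = 2) at 21 d, and no change between them was called (log2 fold change 0.66, SE 0.32, adjusted p = 0.12). Oxct2a, which lies inside an intron of Bmp8a, had 40 counts over all samples.

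The other 4 ligands were at the edge of detection or below it. Bmp2, a strong inducer of bone, was listed at 0 in all 10 samples. The mitochondrial genes mt-Nd5, mt-Nd3 and mt-Nd4l, which every cell uses, were also listed at 0, so a 0 in this table need not be an absence of transcript. Bmp3, an abundant BMP of adult bone that is known to counteract the others, had 1 count in both subconfluent samples together and 11 at 21 d. The ratio was 13.9 (95% exact counting interval 2.02 to 599), and 9 of the 11 counts came from replicate B, all of them from 1 of its 2 sequencing lanes. That lane was the deeper, with 5585 counts of Bmpr1a against 899 in the other. Bmp6, a ligand with a central part in iron balance, had at most 5 counts in a sample, the highest in confluent replicate B. Bmp6 shares 224 exon bases with Txndc5 on the opposite strand, which had 364097 counts over all samples against 15 for Bmp6. Bmp7, needed for kidney and eye development, had at most 2 counts in a sample and 0 in 6 of the 10.

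From subconfluent cells to 21 d the tested receptors changed far less than Bmp4 and Bmp8a, the only ligands tested. Of these, Bmp8a passed the filter only through the stages in which it was high. Bmpr1a, a type I receptor that binds BMP2 and BMP4 with high affinity, had an RPKM of 17.3 and 16.2 in subconfluent cells (A and B), 16.4 and 14.4 at confluence, 10.0 and 15.3 at 24 h, 12.6 and 13.2 at 14 d, and 13.5 and 13.5 at 21 d. Both subconfluent samples lay above both 14 d and both 21 d samples, and 24 h replicate A was the lowest of all. No comparison called Bmpr1a. Its log2 fold change at 21 d against subconfluent cells was -0.20 (SE 0.16, adjusted p = 0.34), and the F test gave an adjusted p-value of 0.45. The same comparison passed the threshold with only the 2 stages in the fit (log2 fold change -0.20, adjusted p = 0.021) and without the 24 h samples (-0.20, adjusted p = 0.039). These fits called 13367 of 19289 and 13216 of 19994 of all genes, in either direction. Of 22 alternatives 3 called Bmpr1a in this comparison. Without 24 h replicate B its log2 fold change was -0.22. Leaving out 24 h replicate B, so that replicate A stood alone for 24 h, also put Bmpr1a below confluence at 24 h (log2 fold change -0.46, adjusted p = 0.0072) and above 24 h at 14 d (0.39, adjusted p = 0.011), whereas leaving out replicate A gave 0.03 (adjusted p = 0.89) and -0.07 (adjusted p = 0.62). A lone sample is assumed to vary like the other stages. An antisense gene, Gm17110, shares 290 exon bases with Bmpr1a and had 134 counts against 57869.

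Acvr1 encodes the type I receptor ALK2, which binds BMP6 and BMP7 and whose activating mutations cause bone to form in soft tissue in fibrodysplasia ossificans progressiva. Its RPKM was 12.5 and 11.4 in subconfluent cells, 12.5 and 10.9 at confluence, 9.31 and 12.1 at 24 h, 11.2 and 10.5 at 14 d, and 10.6 and 10.2 at 21 d. Every stage overlapped with its neighbour. Acvr1 was called in none of the 6 comparisons, its log2 fold changes ran from -0.14 to 0.15 across them, and the F test gave an adjusted p-value of 0.70. No alternative called it either.

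Bmpr1b, a type I receptor known from cartilage and the ovary, was barely detected. It had 1 and 2 counts in the subconfluent samples, 0 in the 4 confluent and 24 h samples, 1 and 0 at 14 d, and 0 and 3 at 21 d. Because 3 counts in a library correspond to between 0.00467 and 0.0163 RPKM for this gene, a level below that was not detectable at this depth.

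Bmpr2, the type II receptor that is selective for BMPs and that is mutated in heritable pulmonary arterial hypertension, was the only receptor with a called change in the fit of all 10 samples. Its RPKM was 4.19 and 3.68 in subconfluent cells, 4.05 and 3.69 at confluence, 3.08 and 4.73 at 24 h, 4.77 and 4.43 at 14 d, and 5.53 and 4.92 at 21 d. Both 21 d samples lay above all others, and both 14 d samples lay above all subconfluent and confluent ones, with 24 h on either side. From subconfluent cells to 21 d the log2 fold change was 0.53 (SE 0.17, adjusted p = 0.033). That call held in 10 of 22 alternative analyses, with log2 fold changes from 0.34 to 0.65. It was lost, among others, with the replicate letter as a block (adjusted p = 0.054), with library size alone as the scaling (log2 fold change 0.37, adjusted p = 0.21), and without subconfluent replicate B (log2 fold change 0.39, adjusted p = 0.18) or 21 d replicate A (log2 fold change 0.44, adjusted p = 0.16). For 14 d against confluence the log2 fold change was 0.46 (SE 0.17, adjusted p = 0.072), and 6 of 22 alternatives called it, that without the 24 h samples among them (adjusted p = 0.0054). At 14 d against 24 h the log2 fold change was 0.37 (SE 0.17, adjusted p = 0.17), and 0.60 without 24 h replicate B (adjusted p = 0.0048). The F test over the 5 stages gave Bmpr2 an adjusted p-value of 0.055.

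**Figure D2:**
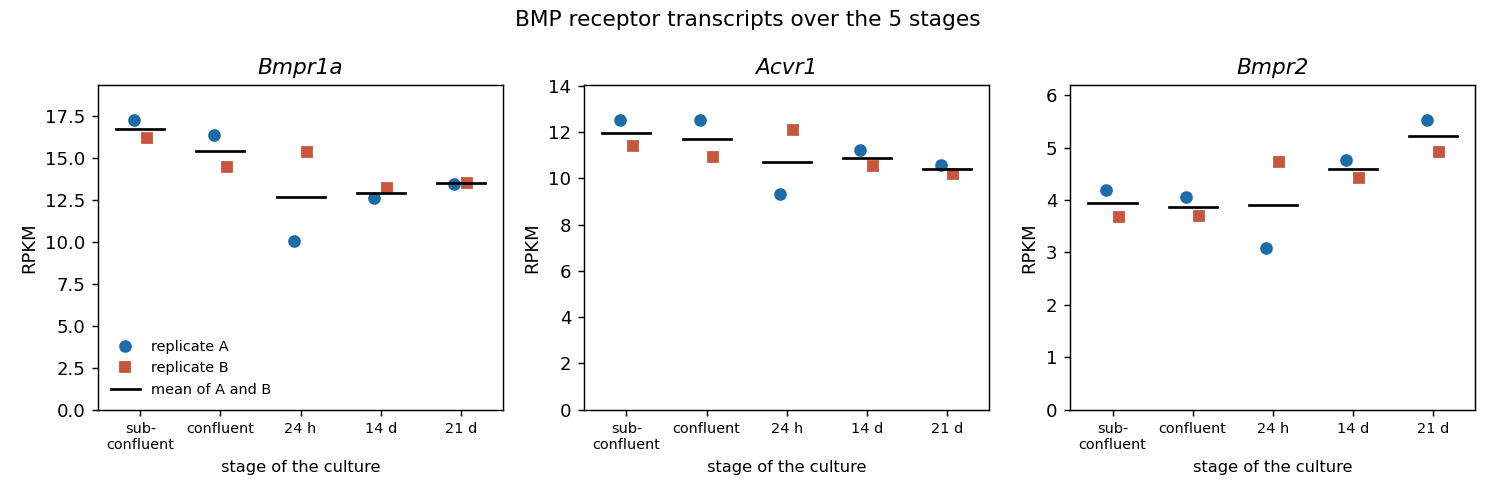
RPKM of the receptors Bmpr1a, Acvr1 and Bmpr2 in each sample at the 5 stages, each on a linear axis from 0, with replicate A as circles, replicate B as squares and the mean of both as a bar. The replicates of 24 h lie far apart in all 3 panels (10.0 and 15.3 for Bmpr1a, 9.31 and 12.1 for Acvr1, 3.08 and 4.73 for Bmpr2), and both 21 d samples of Bmpr2 lie above all its other samples.

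The makeup of the pool of 6 ligands shifted late in the course, and the receptors kept their order. This pool leaves out the other BMP and GDF ligands. One of them, Gdf6, averaged 7.92 RPKM at 21 d, above Bmp4 (6.52 RPKM) and Bmp8a (1.97 RPKM), after 0.121 RPKM at the subconfluent stage. The shares and ratios below therefore hold for the 6 ligands only, and they were not computed with Gdf6 included. Shares and ratios are means ± SD with n = 2. Bmp4 accounted for 99.96% ± 0.0130 of the summed ligand RPKM in subconfluent cells, 99.7% ± 0.144 at 24 h, 87.8% ± 1.09 at 14 d and 76.3% ± 1.66 at 21 d. Bmp8a made up nearly all of the rest, with 12.1% ± 1.07 at 14 d and 23.2% ± 1.41 at 21 d. These shares are descriptions without a test, and they depend on the gene lengths: with the exonic lengths of GENCODE vM21 the share of Bmp8a at 21 d was 39.7% ± 1.89. The summed ligand RPKM was 39.3 ± 2.29 in subconfluent cells and 8.54 ± 0.764 at 21 d, while the summed receptor RPKM was 32.6 ± 1.93 and 29.1 ± 0.683. The ratio of summed ligand to summed receptor was 1.21 ± 0.142 in subconfluent cells, 0.925 ± 0.0284 at confluence, 0.535 ± 0.0421 at 24 h, 0.553 ± 0.0272 at 14 d and 0.293 ± 0.0194 at 21 d. Whether the ligand sum exceeds the receptor sum in subconfluent cells rests on the gene lengths, since this ratio was 0.584 ± 0.0679 there and 0.182 ± 0.00992 at 21 d with the GENCODE vM21 lengths, an alternative chosen after seeing the data. Summed counts gave 0.189 ± 0.0229 and 0.0561 ± 0.00202. By all 3 measures the ratio was lower at 21 d.

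**Figure D3:**
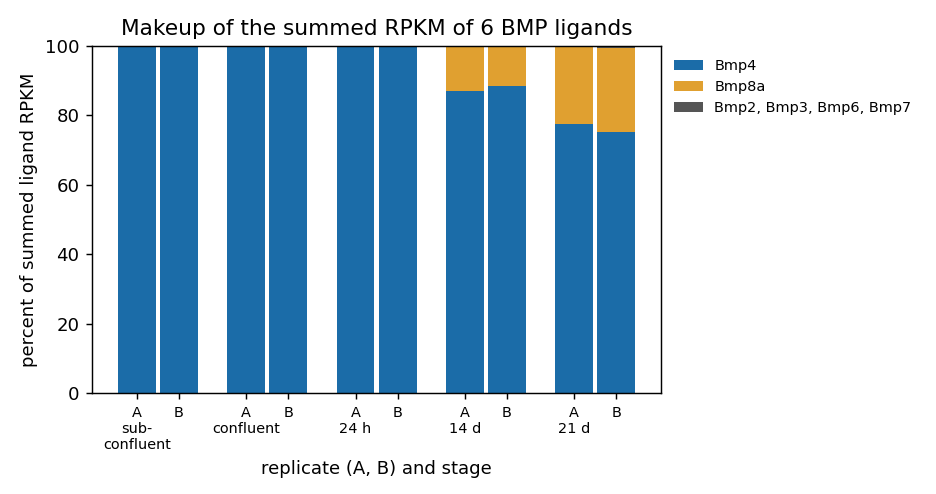
Percent of the summed RPKM of the 6 ligands taken by Bmp4, by Bmp8a and by the other 4 ligands together, for replicates A and B at each stage. Bmp8a takes 12.9% and 11.4% at 14 d and 22.2% and 24.2% at 21 d, and under 1% in the earlier samples, the highest of which is 0.436%.

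Among the type I receptors Bmpr1a was the more abundant in every sample, with a ratio of Bmpr1a to Acvr1 between 1.08 and 1.42. Its share of the summed type I RPKM was 58.3% ± 0.501 in subconfluent cells, 53.8% ± 2.85 at 24 h and 56.4% ± 0.631 at 21 d. The ratio of summed type I receptor to Bmpr2 was 7.30 ± 0.272 in subconfluent cells, 6.995 ± 0.178 at confluence, 6.04 ± 0.334 at 24 h, 5.18 ± 0.258 at 14 d and 4.58 ± 0.329 at 21 d. Both 21 d samples lay below all others in this ratio, both 14 d samples lay below both at 24 h, and subconfluent and confluent samples overlapped.

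Read against all genes, the calls among the BMP genes were few in the early comparisons, where calls were few in general. At confluence against subconfluent cells edgeR called 0 of the 5 tested members, and 1 (Bmp4) had an unadjusted p-value under 0.05, while 1.95% of all genes were called higher and 1.34% lower. DESeq2 also called 0. At 24 h against confluence Bmp4 was the only one called, with 3.59% of all genes higher and 1.57% lower. At 14 d against 24 h only Bmp8a was called, with 9.08% of all genes higher and 8.21% lower. At 21 d against 14 d only Bmp4 was called, with 3.77% of all genes higher and 5.95% lower. At 14 d against confluence Bmp8a was called higher and Bmp4 lower, with 16.9% and 15.3% of all genes. At 21 d against subconfluent cells Bmp8a and Bmpr2 were called higher and Bmp4 lower, with 27.3% and 23.5% of all genes. The F test called Bmp4 and Bmp8a, and 48.9% of all genes. Comparisons that share a stage share its samples and are not independent of each other.

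The rest of the pathway is given for 21 d against subconfluent cells, by lists of genes with known roles. Each count stands beside the 27.3% of all genes called higher and the 23.5% called lower there. Of 9 other BMP and GDF ligands 4 were tested, and 3 were higher and none lower. The median log2 fold change of the 4 was 3.77, against 0.04 over all genes tested. Bmp15, whose fold change rests on the prior count, enters that median. It passed the filter on low counts only through 14 d and 21 d, the stages in which it was high. A gene that enters so can hardly be called lower, so its call adds little to the count of higher ligands. Gdf5, also called higher, had few counts, 24 over both subconfluent samples and 92 over both 21 d samples. With limma on log2(RPKM + 1) the median of the 4 was 0.28. Gdf6, a ligand known from joint and skull development, rose from 0.151 and 0.0914 RPKM in the subconfluent samples to 8.10 and 7.75 RPKM at 21 d (log2 fold change 6.07, SE 0.27, adjusted p = 5.8e-06), so that at 21 d it stood above both Bmp4 and Bmp8a in RPKM. Bmp15, an oocyte factor, had 2 and 0 counts in the subconfluent samples and 28 and 52 at 21 d (adjusted p = 3.4e-04). Its RPKM did not exceed 0.317 in any sample. With a filter of at least 10 counts in every sample 2 of these ligands were tested and 1 was higher.

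Of 11 other receptors and co-receptors 8 were tested, with 3 higher and none lower and a median log2 fold change of 0.44. With upper-quartile factors 5 of the 8 were called higher, and with only the 2 stages in the fit 5 of 7. Over all genes 27.3% were called higher in the main fit. Those 2 settings called 10544 of 20808 and 13367 of 19289 genes, in either direction. Tgfbr3 (betaglycan), a co-receptor that presents TGF-β and also binds BMPs, rose from 5.49 and 5.14 RPKM to 21.2 and 21.4 RPKM (log2 fold change 2.12, SE 0.12, adjusted p = 1.3e-05). Acvr1b, the type I receptor ALK4 of activins, rose by a log2 fold change of 1.24 (SE 0.18, adjusted p = 0.0010). The type II receptors Acvr2a and Acvr2b, which can stand in for Bmpr2, had log2 fold changes of 0.01 and 0.43 with adjusted p-values of 0.94 and 0.68. Of 3 convertases that cleave pro-BMPs 2 were tested, with a median of 0.79. Pcsk6 (PACE4) rose by a log2 fold change of 1.78 (SE 0.15, adjusted p = 7.0e-05), and Furin had a log2 fold change of -0.20 (adjusted p = 0.33). Furin was called lower without the 24 h samples and with only the 2 stages in the fit. These fits called 13216 of 19994 and 13367 of 19289 genes, in either direction.

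All 6 signal transducers were tested, with none higher and 2 lower and a median log2 fold change of -0.30. The share called lower was near that of all genes, 23.5%. Without the 24 h samples, and with only the 2 stages in the fit, 4 were called lower. These fits called 13216 of 19994 and 13367 of 19289 of all genes, in either direction. Smad9, which encodes the BMP effector also called Smad8, fell from 3.16 and 2.98 RPKM to 0.885 and 0.888 RPKM (log2 fold change -1.67, SE 0.19, adjusted p = 2.8e-04). Smurf1, an E3 ubiquitin ligase that marks Smad1 and Smad5 for degradation, fell by 0.88 on the log2 scale (SE 0.14, adjusted p = 0.0018). Smad1, Smad5 and Smad4 had log2 fold changes of -0.12, -0.33 and 0.06, none of which was called.

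Of 11 secreted antagonists 10 were tested, and 6 were higher and 2 lower, with a median log2 fold change of 1.51. The list thus moved in both directions, and of all genes 27.3% were called higher and 23.5% lower. Sostdc1, an antagonist of BMP and Wnt ligands, rose from 0.333 and 0.240 RPKM to 4.79 and 4.62 RPKM (log2 fold change 4.12, SE 0.24, adjusted p = 1.6e-05). Its rise lay between 24 h and 14 d, as that of Bmp8a did, with 0.235 and 0.181 RPKM at 24 h and 4.30 and 4.35 RPKM at 14 d. Bmper, a secreted regulator that binds BMPs, was 0.403 and 0.316 RPKM in the subconfluent samples, 6.17 and 5.81 RPKM at 14 d and 2.95 and 2.82 RPKM at 21 d (log2 fold change 3.10, SE 0.15, adjusted p = 8.4e-06).

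All 11 feedback and target genes of the pathway were tested, with 2 higher and 8 lower and a median log2 fold change of -1.17. Of all genes 27.3% were called higher and 23.5% lower. Id2, an inhibitor of basic helix-loop-helix factors that BMPs induce, fell from 36.1 and 36.5 RPKM to 3.16 and 3.45 RPKM (log2 fold change -3.34, SE 0.11, adjusted p = 2.5e-06). Id3, of the same family, was 125 and 142 RPKM in subconfluent cells and 33.9 and 37.5 RPKM at 21 d (log2 fold change -1.79, SE 0.16, adjusted p = 1.1e-04). The 2 higher genes were Id4 and Bambi, a pseudoreceptor that blocks BMP signals. These 2 are named after their values were seen, and their log2 fold changes were 1.21 (SE 0.09) and 0.88 (SE 0.18). Under the 3 other scalings each list's median kept its sign. The median of all genes in this comparison was -0.12 with library size alone and 0.17 with upper-quartile factors, and with upper-quartile factors or with the replicate block 6 feedback and target genes were called lower in place of 8.

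**Figure D4:**
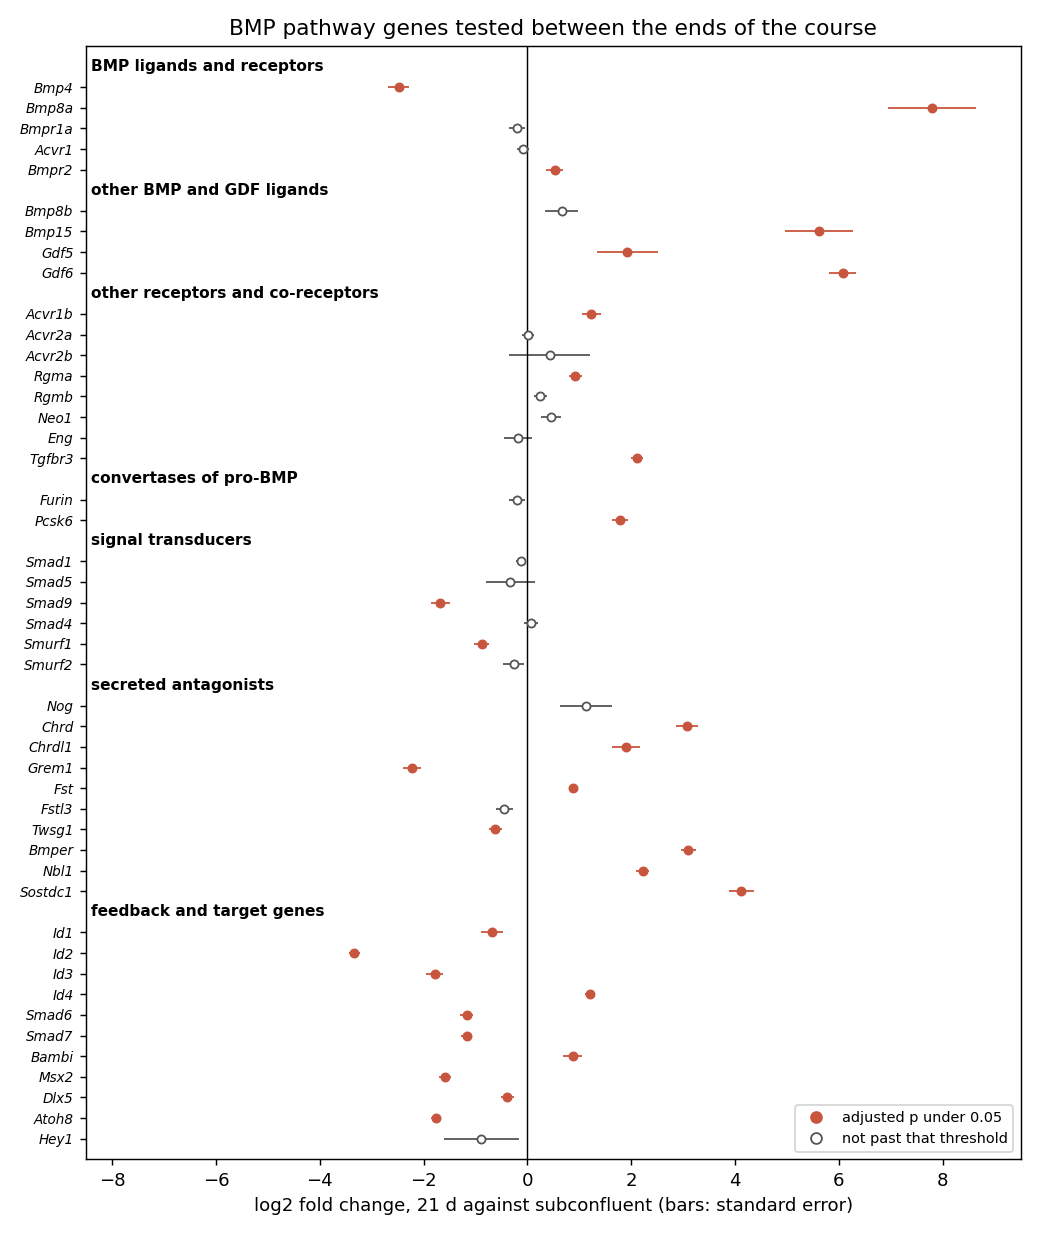
Log2 fold change at 21 d against subconfluent cells (edgeR, 10 samples) of the BMP ligands and receptors and of the other pathway genes tested, by list, with the standard error as a bar. Filled points passed an adjusted p-value of 0.05, with 3 of 5 ligands and receptors, 6 higher and 2 lower antagonists, and 8 lower and 2 higher feedback and target genes. Of all genes 27.3% were called higher and 23.5% lower. The fold changes of Bmp8a and Bmp15 rest on the prior count.

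Of the ligands and receptors followed here Bmp8a and Bmpr2 had the lowest F test p-values in their class. Genes with the most similar profile over the 10 samples were sought among those averaging 5 CPM (counts scaled to library size with TMM factors) or more. For Bmp8a these were AI480526 (Pearson r = 0.997), Ltbp4 (r = 0.994) and Gid4 (r = 0.993) of 11992 genes. For Bmpr2 they were 5730455P16Rik (r = 0.984), Prdm2 (r = 0.982) and Zkscan8 (r = 0.982) of 11991 genes. The 10 points share stages and index pairs, and the coefficients are a description only.

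Markers of blood, endothelium and adipocytes were low, each list summing to at most 1.13 RPKM in a sample. Cd68, at a mean of 0.923 RPKM at 21 d, and Fabp4, at 0.995 RPKM at 24 h, were above the floor of 3 counts. Chondrocyte and skeletal muscle markers summed to more. The summed RPKM of 5 blood markers ran from 0.464 to 0.941 with Ptprc and Hbb-bs at 0 in all samples, that of 4 endothelial markers from 0.00821 to 0.107, and that of 4 adipocyte markers from 0.110 to 1.13. The 3 chondrocyte markers summed to between 45.7 and 241 RPKM, almost all of it Col2a1 and Sox9, and were lowest at 24 h and highest at 14 d. The 4 skeletal muscle markers summed to 42.8 and 43.6 RPKM in subconfluent cells and 14.3 and 14.4 RPKM at 21 d, nearly all of it Acta1 (log2 fold change -1.48, SE 0.16, adjusted p = 2.7e-04), with Myod1 at 0 in all samples. Acta1 was thus lower at 21 d along with Bmp4, and its part in that result was not tested.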

How the data were processed

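RNA-seq of 10 MC3T3-E1 samples (51 bp paired-end reads) was used. The submitters' processing notes name FastQC, TopHat2 2.0.9, R 3.0.1 and the mm10 build, and the counting tool is not given in the sources used here. The authors deposited raw counts per Ensembl gene and RPKM values, in which each count is divided by a length and a read total; the summed counts exceed that total 1.44 to 1.60 times. Samples 14 d A and 21 d B were sequenced in 2 lanes, and the authors' merged columns were used, which are not the lane sums. Symbols were matched in GENCODE vM21 for 39547 of 40620 identifiers.

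The counts went into edgeR 4.0.16 under R 4.3.3 (filterByExpr, TMM, quasi-likelihood test, 5 stages in 1 fit, no covariate, Benjamini-Hochberg over 20808 genes), after the scripts had been tested on simulated data. Standard errors are the log2 fold change over the square root of F. Alternatives used DESeq2 1.42.0, limma 3.58.1 on log2(RPKM + 1) and log2(RPKM + 0.1), other scalings, filters, samples and lanes, the replicate block, and each replicate left out. The members and lists were chosen with earlier results of these data known. For each list the 2 called genes with the largest absolute change at 21 d against subconfluent cells were named. One gene of the antagonist list is not reported here, and the counts of that list leave it out.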

Additional observations from a re-analysis of the deposited data

How the results depend on the processing

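Bmp2, Bmp3, Bmp6, Bmp7 and Bmpr1b did not pass the filter on low counts and were not tested in the main analysis. Of the 5 tested members, 3 were called at 21 d against subconfluent cells, and 2 to 4 under the alternatives, the call of Bmpr2 holding in 10 of 22 of them. No pairing of the samples by replicate letter was seen: the A minus B deviations of 2 stages correlated between -0.18 and 0.10 over genes. Such weak correlations cannot show that there was none. In the column names the letter also goes with the index sequence of the library. With the replicate block 0 members were called at 24 h against confluence in place of 1, and at 21 d against subconfluent cells 2 in place of 3, without Bmpr2. For 24 h against confluence the count was also 0 with upper-quartile factors, library size alone or only the 2 stages. Limma on log2(RPKM + 0.1) or a 2-fold threshold gave 0 there as well, and DESeq2 gave 2. At 14 d against 24 h the count was 0 in place of 1 with at least 10 counts in every sample, which removes Bmp8a, and with only the 2 stages, and 1 to 3 with a library left out, 3 being without 24 h replicate B. At 21 d against 14 d it was 0 to 1 and at 14 d against confluence 1 to 2 with a library left out, and the latter was 1 with a 2-fold threshold. At confluence against subconfluent cells it was 1 in place of 0 without the 24 h samples, and 0 to 1 with a library left out. The F test called 2, and 2 to 4 with a library left out, 4 being without 24 h replicate B. Apart from those that filters or smaller fits show, the causes were not tested.

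With counts in place of RPKM, which leaves gene length in, Bmp4 made up 99.9% of the ligand sum in subconfluent cells and 57.9% at 21 d, Bmp8a 41.0% at 21 d, and the ratio of type I receptors to Bmpr2 was 2.84 and 1.77. With GENCODE vM21 exonic lengths, an alternative chosen after seeing the data, these values were 99.9%, 59.9%, 39.7%, 8.96 and 5.62.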
